A study of Mus musculus with 6 samples.

Results

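The ADAMTS proteases described here are 10 members of the family of secreted metalloproteases with thrombospondin repeats, taken by name and matched by NCBI gene number in a table of 21117 genes. The matched genes were Adamts1, Adamts2, Adamts4, Adamts5, Adamts7, Adamts8, Adamts9, Adamts10, Adamts15 and Adamts17. Of these, 7 reached a mean of 1 FPKM over the 6 samples and were tested, and 3 (Adamts4, Adamts7 and Adamts17) did not and are given as values without a test. FPKM divides the fragments of a gene by transcript length and by the mapped fragments of the library, so levels of different genes can be set side by side. Poly(A) RNA of aortic tissue from untreated mice aged 32 weeks was sequenced in 6 libraries, 3 of wild type (WT) and 3 of the genotype Fbn1C1041G/+. That genotype is heterozygous for a missense allele of fibrillin-1 and is used as a model of Marfan syndrome. The allele is in the germline and not limited to a cell type, and the labels give neither strain, sex nor the stretch of aorta taken. Whether each library came from its own animal is not stated either. The tests below therefore set the group difference against the spread of these libraries, which may not be the spread between animals.

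ADAMTS enzymes are made as inactive precursors, are cut by furin-type proteases, and are secreted or held at the cell surface, where a zinc ion in the catalytic domain carries out the cleavage. Different members cut different matrix proteins: the large proteoglycans versican and aggrecan, the N-propeptides of fibrillar procollagens, cartilage oligomeric matrix protein (COMP), or, for members that bind fibrillin, components of the microfibrils. In the aortic wall versican and aggrecan lie between the elastic layers of the media. Activity is also set after transcription, by precursor processing, by the inhibitor TIMP3 and by uptake through the receptor LRP1, so a transcript level is not a level of activity.

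The coding sequence of the zinc-binding site is shown because it is the catalytic feature that the 10 members share and because it also separates them by gene structure. Each stretch has 36 bases, read 5′ to 3′ on the coding strand from GENCODE M21 transcripts of build GRCm38, and capitals mark the codons of the catalytic glutamate and of the 3 zinc-binding histidines. The authors used another build, so the coordinates below locate these sequences in GRCm38 only.
Adamts1: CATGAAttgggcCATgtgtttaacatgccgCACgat
Adamts4: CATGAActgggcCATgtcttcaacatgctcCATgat
Adamts5: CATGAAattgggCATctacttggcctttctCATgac
Adamts8: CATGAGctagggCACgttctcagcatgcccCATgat
Adamts15: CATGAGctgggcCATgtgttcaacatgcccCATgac
Adamts9: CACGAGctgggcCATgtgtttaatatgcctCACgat
Adamts2: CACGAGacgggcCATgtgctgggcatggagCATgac
Adamts7: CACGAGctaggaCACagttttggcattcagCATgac
Adamts10: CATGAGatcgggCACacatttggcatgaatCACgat
Adamts17: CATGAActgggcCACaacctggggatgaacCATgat

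Of the 36 positions, 14 held the same base in all 10 members, and 6 of the 12 codons encoded the same residue in all of them. Over the 45 pairs the number of identical bases ran from 20 (Adamts5 and Adamts9) to 32 (Adamts4 and Adamts15), with a median of 23.0. An exon junction fell inside the site in every member, and its position took 2 values. In Adamts1, Adamts4, Adamts5, Adamts8 and Adamts15 the junction lay after base 10 of the site, in transcripts of 8 to 9 exons that encode 845 to 968 residues. In Adamts2, Adamts7, Adamts9, Adamts10 and Adamts17 it lay after base 17, in transcripts of 22 to 40 exons that encode 1104 to 1931 residues. Adamts9, known as a versicanase, thus stood with the procollagen and microfibril members by junction, while 31 of its 36 bases matched those of Adamts1. The split sites lie at chr16:85799188-85799545 (minus strand, exons 3 and 4) for Adamts1, at chr16:85878012-85887826 (minus strand, exons 2 and 3) for its neighbour Adamts5, at chr17:33538157-33538282 (plus strand, exons 9 and 10) for Adamts10 and at chr11:50775403-50776137 (plus strand, exons 7 and 8) for Adamts2. The GENCODE transcript that matched the authors' accession for Adamts9 does not hold the site, which was read from a longer transcript of 8016 bases, so the FPKM of Adamts9 may refer to a shorter model than the full enzyme.

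None of the 7 tested ADAMTS genes differed between Fbn1C1041G/+ and WT aortas at an adjusted p under 0.05, in a comparison that called 5.60% of all 13438 tested genes (0.744% higher and 4.85% lower in the mutant). None had an unadjusted p under 0.05 either, where 15.2% of all tested genes did (limma on log2(FPKM + 1), 2-sided, Benjamini-Hochberg adjustment over all tested genes). The log2 fold changes of the 7 members, Fbn1C1041G/+ minus WT, ran from -0.04 to 0.49 with a median of 0.22, and 6 of 7 were above 0, while the median over all tested genes was -0.0036. This lean was not particular to the ADAMTS genes. Smooth muscle markers (8 of 8 above 0, median 0.20), fibroblast markers (7 of 7, 0.21) and endothelial markers (5 of 6, 0.10) leaned the same way. Macrophage (7 of 7, 0.93), cardiomyocyte (8 of 8, 2.55) and skeletal muscle markers (3 of 3 tested, 2.03) lay further above 0. Adipocyte markers (2 of 5, -0.09) and chromaffin and neuronal markers (0 of 8, -2.70) did not. Adjusted p values ran from 0.413 (Adamts5) to 0.985 (Adamts10). Under the 17 alternative settings no member passed the threshold. In simulated data the same fit recovered 6% of 1.5-fold and 48% of 2-fold changes, so changes of that size can go uncalled. The simulation changed fewer genes than were called here and drew independent noise, so these rates need not hold in these data. Fbn1 itself, the mutated gene, stood at 16.94, 17.27 and 22.18 FPKM in WT and 22.29, 21.78 and 28.62 FPKM in mutant samples. The groups overlapped, with a limma log2 fold change of 0.35 ± 0.17 (SE, interval -0.06 to 0.76) and an adjusted p of 0.432.

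**Figure D1:**
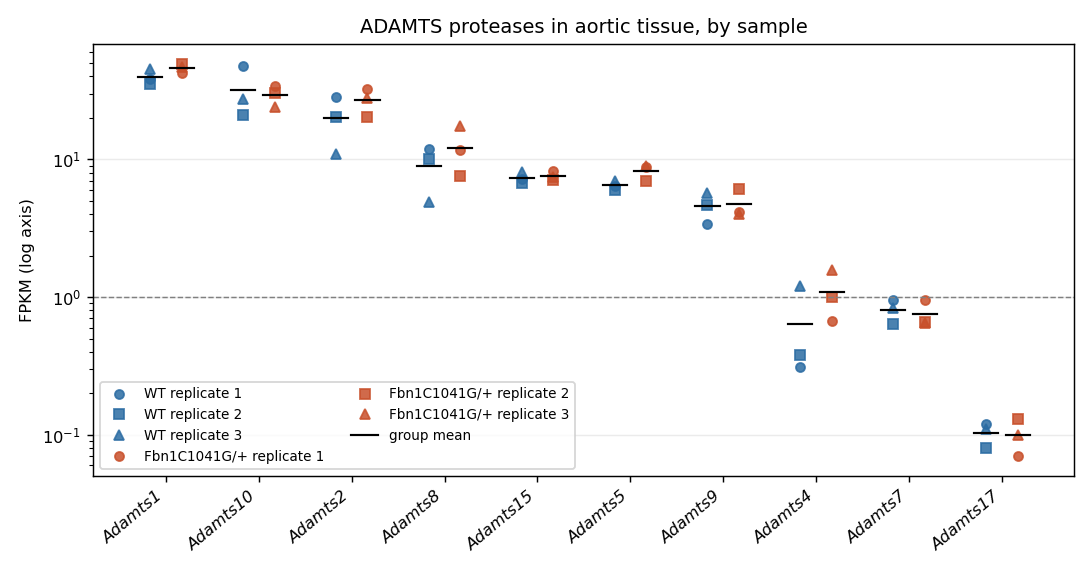
FPKM (log axis) of the 10 ADAMTS genes in each sample, with WT in blue and Fbn1C1041G/+ in orange, 1 symbol per replicate number and a bar at the group mean; the dashed line is the level of 1 FPKM. The members span more than 2 orders of magnitude, from Adamts1 at 35.35 to 49.58 FPKM down to Adamts17 at 0.07 to 0.13 FPKM, and in Adamts5 alone among the 10 genes the groups do not overlap.

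Adamts1, Adamts10 and Adamts2 were the most abundant members and held 75.7 ± 3.11% (SD, n = 3) of the summed FPKM of the 10 genes in WT and 74.7 ± 3.24% (SD, n = 3) in mutant samples. The sum itself was 144.37, 105.03 and 111.46 FPKM in WT replicates 1 to 3 and 143.64, 129.64 and 138.71 FPKM in Fbn1C1041G/+ replicates 1 to 3, so the groups overlapped. In WT the order of means was Adamts1 (39.7 FPKM), Adamts10 (31.9), Adamts2 (19.8), Adamts8 (8.97), Adamts15 (7.32), Adamts5 (6.46), Adamts9 (4.56), Adamts7 (0.81), Adamts4 (0.633) and Adamts17 (0.103). Neighbours in that order that did not differ by more than the larger of their SDs were Adamts1 and Adamts10, Adamts10 and Adamts2, Adamts8 and Adamts15, and Adamts7 and Adamts4. In Fbn1C1041G/+ samples the means gave the same order apart from 2 exchanges, Adamts5 (8.27 FPKM) before Adamts15 (7.59) and Adamts4 (1.09) before Adamts7 (0.757), and each exchanged pair lay within the larger SD there. The gap from Adamts1 to Adamts10 exceeded the larger SD in the mutant group (46.2 against 29.5 FPKM) but not in WT.

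**Figure D2:**
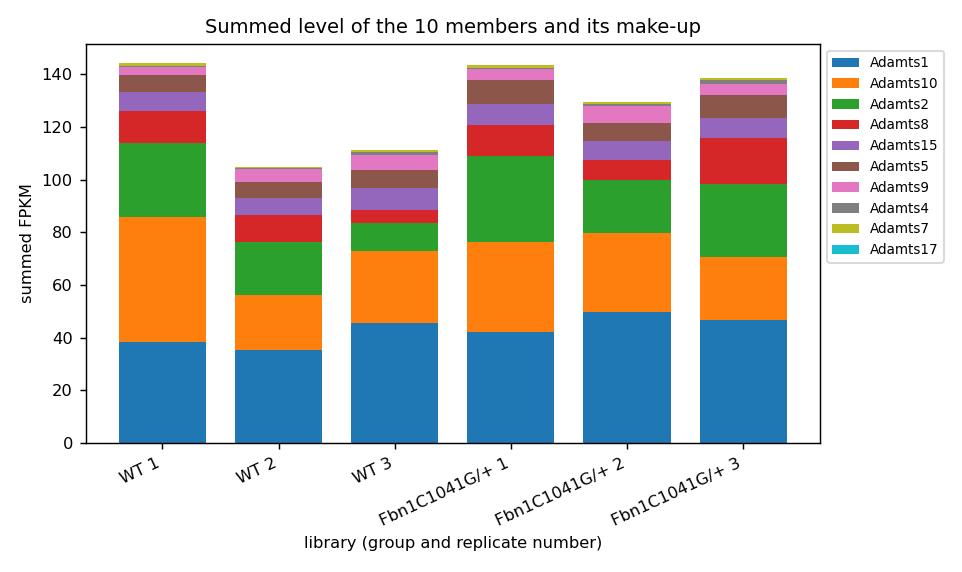
Summed FPKM of the 10 ADAMTS genes in each library, with a coloured segment per gene; the axis starts at 0. WT replicate 1 reaches 144.37 FPKM with a wide Adamts10 segment, WT replicate 2 is the lowest at 105.03 FPKM, and the mutant libraries lie between 129.64 and 143.64 FPKM.

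Among the members that cut proteoglycans, Adamts1 and Adamts5 are neighbours on chromosome 16. Adamts1, a versican- and aggrecan-cleaving enzyme, stood at 38.35, 35.35 and 45.40 FPKM in WT and 42.29, 49.58 and 46.76 FPKM in mutant samples. The mutant libraries lay at the upper end of the range, and WT replicate 3 exceeded the lowest of them. By limma the log2 fold change was 0.22 ± 0.15 (SE), with a 95% interval from -0.13 to 0.57 and an adjusted p of 0.649. The estimate for Adamts1 was 0.14 without WT replicate 2 and 0.34 with sample weights (adjusted p 0.126 by limma).

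Adamts5, the main aggrecanase of mouse cartilage, stood at 6.43, 6.03 and 6.93 FPKM in WT and 8.86, 6.95 and 9.0 FPKM in mutant samples. The groups did not overlap, but the nearest libraries, Fbn1C1041G/+ replicate 2 and WT replicate 3, were at nearly the same level. Such separation was seen in 20.0% of all tested genes, and in 6.85% with the mutant higher, so 1 of 7 tested members is near the background. The limma estimate was a log2 fold change of 0.31 ± 0.15 (SE, interval -0.04 to 0.65), with an adjusted p of 0.413 and the smallest unadjusted p of the members, 0.0744. The ratio of Adamts1 to Adamts5 was 5.96, 5.86 and 6.55 in WT and 4.77, 7.13 and 5.20 in mutant libraries, so its mutant values spread to both sides of the WT values.

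Adamts8, a weak aggrecanase, and Adamts15, a versicanase, are neighbours on chromosome 9 and differed in how steady they were. Adamts15 stood at 7.17, 6.75 and 8.04 FPKM in WT and 8.18, 7.14 and 7.44 FPKM in mutant samples, with coefficients of variation of 8.99% and 7.06%. Between the groups Adamts15 differed by 0.05 ± 0.13 (SE) in log2 (limma, adjusted p 0.945), and the 95% interval, from 0.832 to 1.28 as a fold of FPKM + 1, was the narrowest of the 7. Adamts8 stood at 11.98, 10 and 4.93 FPKM in WT and 11.67, 7.54 and 17.36 FPKM in mutant samples, with coefficients of variation of 40.5% and 40.4%. WT replicate 3 was the lowest library and Fbn1C1041G/+ replicate 3 the highest. For Adamts8 limma gave a log2 fold change of 0.41 ± 0.37 (SE) and an adjusted p of 0.755. Leaving out WT replicate 3 brought the estimate to 0.07, leaving out the third mutant library to 0.14, leaving out the second mutant library to 0.69, leaving out WT replicate 1 to 0.64, and weighting the samples to 0.21.

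Adamts9, which cleaves versican and aggrecan, stood at 3.37, 4.65 and 5.66 FPKM in WT and 4.18, 6.12 and 4.01 FPKM in mutant samples, with overlapping groups. Its estimated difference in log2 was 0.06 ± 0.22 (SE, adjusted p 0.961 by limma), and the sign turned without WT replicate 1 or Fbn1C1041G/+ replicate 2. Adamts4, an aggrecanase inducible by inflammatory signals, stood at 0.31, 0.38 and 1.21 FPKM in WT and 0.67, 1.01 and 1.58 FPKM in mutant samples. WT replicate 3 lay above 2 of the 3 mutant libraries, so the groups overlapped, and the values rest on an estimated 21.9 to 110.6 fragments per library. The difference of Adamts4 on the log2(FPKM + 1) scale was 0.37, outside the main test because its mean was 0.86 FPKM, and with no filter on low values it was not called either (limma adjusted p = 0.650), in a fit that called 4.06% of the genes. That difference rests on the scale, at 0.83 with a pseudocount of 0.1 and 0.95 with 0.01, and on single libraries, at 0.21 without Fbn1C1041G/+ replicate 3, 0.23 without WT replicate 1 and 0.61 without WT replicate 3.

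Summed over the 6 proteoglycan-cleaving members, the level was 67.61, 63.16 and 72.17 FPKM in WT and 75.85, 78.34 and 86.15 FPKM in mutant samples. The groups did not overlap, nor did they after quantile normalization, median-ratio scaling or correction for GC content. Adamts1 makes up most of this sum. Without Adamts1 the other 5 members summed to 29.26, 27.81 and 26.77 FPKM in WT and 33.56, 28.76 and 39.39 FPKM in mutant samples. These groups overlapped as deposited and after quantile normalization or median-ratio scaling, but not after correction for GC content (26.5 to 28.3 against 28.8 to 41.6 FPKM). This grouping by role was made after the values were seen and carries no test. Of single tested genes 20.0% separated the groups, 6.85% with the mutant higher, and no such share was computed for sums of genes. The scalings use the same 6 libraries, so they add no separate evidence.

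Adamts2, the procollagen N-proteinase that is mutated in dermatosparactic Ehlers-Danlos syndrome, stood at 28.32, 20.30 and 10.89 FPKM in WT and 32.52, 20.29 and 27.78 FPKM in mutant samples. The groups overlapped, since Fbn1C1041G/+ replicate 2 matched WT replicate 2, and WT replicate 3 was the lowest library. The log2 estimate for Adamts2, 0.49 ± 0.34 (SE; adjusted p 0.654 by limma), was the largest among the 7 tested members. Leaving out WT replicate 3 brought it to 0.13, leaving out WT replicate 1 to 0.78, and weighting the samples to 0.19. The interval, from 0.806 to 2.45 as a fold of FPKM + 1, covers both a lower level and more than a doubling.

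Adamts7, which cuts COMP and lies at a human locus for coronary artery disease, stood at 0.95, 0.64 and 0.84 FPKM in WT and 0.96, 0.66 and 0.65 FPKM in mutant samples. The groups covered nearly the same range, and the log2 difference of -0.04 was not tested in the main comparison. Adamts10 and Adamts17 bind or assemble with fibrillin microfibrils, and human mutations in either cause Weill-Marchesani syndromes. Adamts10 stood at 47.37, 20.85 and 27.45 FPKM in WT and 34.24, 30.22 and 24.03 FPKM in mutant samples, so the WT libraries held both the highest and the lowest value. For Adamts10 the log2 estimate was -0.04 ± 0.30 (SE; adjusted p 0.985 by limma), with an interval from 0.597 to 1.58 as a fold of FPKM + 1, and its sign turned without WT replicate 1 (0.28). Adamts17 stood at 0.12, 0.08 and 0.11 FPKM in WT and 0.07, 0.13 and 0.10 FPKM in mutant samples, an estimated 7.03 to 11.6 fragments per library, and no difference was detectable at this depth.

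**Figure D3:**
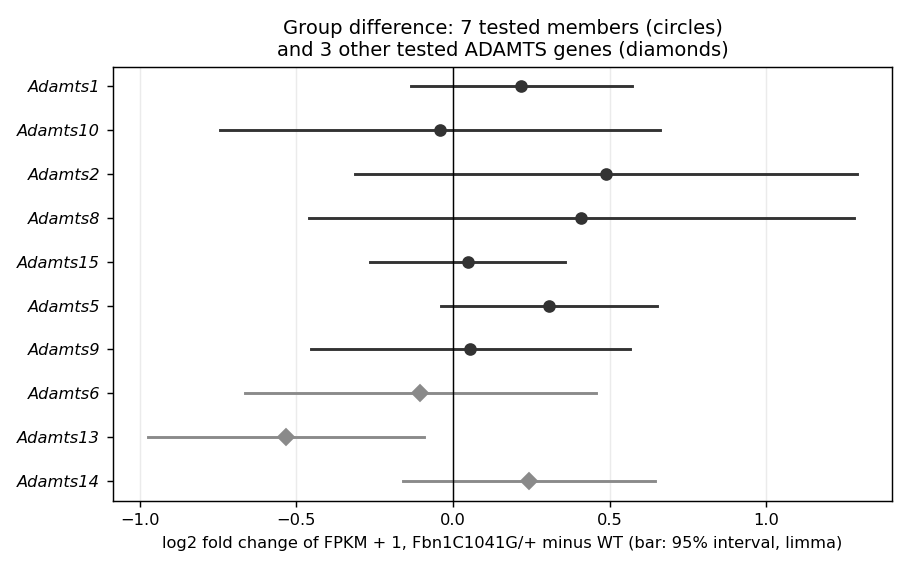
Log2 fold change of FPKM + 1, Fbn1C1041G/+ minus WT, with its 95% interval from limma (3 samples per group), for the 7 tested members (black circles) and the 3 other ADAMTS genes that were tested (grey diamonds). The intervals of the 7 members all include 0, from the narrow one of Adamts15 to the wide ones of Adamts2 and Adamts8, while that of Adamts13 lies below 0 before adjustment for multiple tests.

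Variation between libraries differed in size among the members, and it did not run alike in all of them. The ranges that follow span both groups and so include the difference between them. The range over the 6 libraries on the log2(FPKM + 1) scale was 0.24 for Adamts15, 0.48 for Adamts1, 0.51 for Adamts5, 0.70 for Adamts9, 1.15 for Adamts10, 1.5 for Adamts2 and 1.63 for Adamts8. Transcript GC content was 43.7% in Adamts5, 48.6% in Adamts9, 49.7% in Adamts1, 54.2% in Adamts2, 54.8% in Adamts15, 57.4% in Adamts8 and 58.5% in Adamts10, so the wide ranges were found among GC-rich members, with Adamts15 as the exception. Across 13306 tested genes the deviation of a library from its group mean correlated with GC content (Spearman, across genes, which are not independent) at 0.23, 0.33 and -0.35 in WT replicates 1 to 3 and 0.34, -0.17 and -0.28 in Fbn1C1041G/+ replicates 1 to 3. After correction for GC content the WT replicate 3 value was 10.7 FPKM in Adamts2 and 5.45 FPKM in Adamts8, still the lowest of the 6 libraries in both genes. Corrected values of Adamts2 ran from 10.7 to 31.8 FPKM, against 10.89 to 32.52 FPKM as deposited. Those of Adamts8 ran from 5.45 to 18.9 FPKM (4.93 to 17.36 as deposited) and of Adamts10 from 19.0 to 42.8 FPKM (20.85 to 47.37). Adamts10 was lowest in WT replicate 2 before and after the correction. The same library had the highest summed level of the adipocyte markers (3031 FPKM, against 787 to 1901 FPKM in the others), whose part in the low values was not tested.

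**Figure D4:**
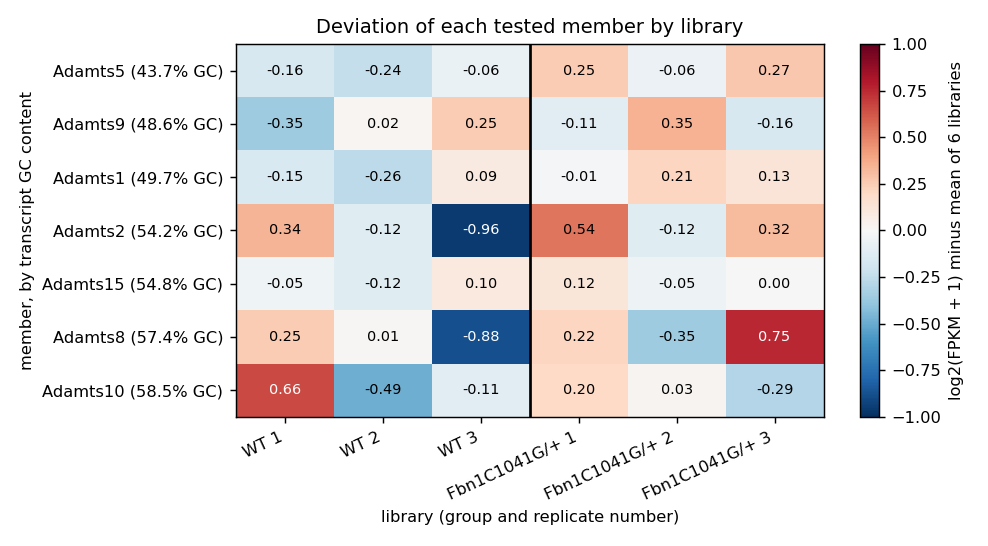
Deviation of each tested member from its own mean over the 6 libraries, in log2(FPKM + 1), by library (columns, WT left of the line) and by transcript GC content (rows, lowest at the top). WT replicate 3 is at -0.96 in Adamts2 and -0.88 in Adamts8 but at 0.25 in Adamts9, and the row of Adamts15 is nearly flat.

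The genes whose profile over the 6 libraries lay nearest to Adamts5, by Euclidean distance between centred log2(FPKM + 1) values among 13419 tested genes, were Tnfaip8 (0.11), Parp14 (0.16) and Rab32 (0.17), against a median distance of 0.75. Nearest to Adamts2 were Igfbp7 (0.22), Socs3 (0.23) and Fzd1 (0.27), against a median of 1.38. Igfbp7, a secreted IGF-binding protein, stood at 821.93 FPKM in WT replicate 3 and at 1704.05 to 2505.37 FPKM in the other libraries. These genes were picked for their likeness to the members, so their levels are a description.

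The other 9 ADAMTS genes in the table were scarce, and only Adamts13, Adamts14 and Adamts6 reached a mean of 1 FPKM. None of the 3 was called and 1 had an unadjusted p under 0.05, as did 15.2% of all tested genes. Adamts13, the protease that trims von Willebrand factor, stood at 4.2, 4.93 and 4.98 FPKM in WT and 3.87, 2.92 and 2.19 FPKM in mutant samples. Each mutant library lay below each WT library, as in 13.1% of all tested genes, with a limma estimate of -0.53 ± 0.19 (log2, SE) and an adjusted p of 0.212, which ran from 0.0526 to 0.566 over the alternatives. Adamts14, a procollagen N-proteinase, and Adamts6, a relative of Adamts10, had log2 fold changes of 0.24 and -0.10. Adamts3, a further procollagen N-proteinase, ranged from 0.22 to 0.31 FPKM in WT libraries and from 0.36 to 0.45 FPKM in mutant ones. Adamts16 and Adamts19, picked after their values were seen, also separated the groups, with Adamts16 at 0.03 to 0.05 FPKM in WT and 0.09 to 0.16 in mutant samples and Adamts19 at 0.13 to 0.17 and 0.03 to 0.07 FPKM. These rest on an estimated 2.08 to 14.6 fragments per library. With Adamts3 and Adamts13 included, 2 of the 9 genes separated the groups with the mutant higher and 2 with the mutant lower. The share of separated genes was taken over tested genes only, so it is no background for genes below the filter. With no filter on low values the adjusted p was 0.289 for Adamts3, 0.2 for Adamts16 and 0.142 for Adamts19 (limma).

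ADAMTS-like proteins share the non-catalytic modules of the family, lack the protease, and several bind fibrillin-1. None of 6 tested members of this list was called or had an unadjusted p under 0.05, and their median log2 fold change was 0.26. Adamtsl1 and Thsd4 (also named Adamtsl6) had log2 fold changes of 0.41 and 0.27. Of 6 genes that activate or glycosylate the enzymes, none was called or had an unadjusted p under 0.05. Furin, the main activating protease, stood at 30.67, 33.67 and 6.92 FPKM in WT and 31.00, 30.95 and 24.34 FPKM in mutant samples, low again in WT replicate 3. The related proprotein convertases Pcsk6 and Pcsk5 had log2 fold changes of 0.40 and 0.22.

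Inhibitors and clearance receptors covered a wide range of levels. Timp3, the inhibitor of Adamts4 and Adamts5, stood at 260.28, 224.88 and 312.98 FPKM in WT and 230.44, 324.11 and 329.85 FPKM in mutant samples (log2 fold change 0.14; limma adjusted p = 0.870). Relative to Timp3, Adamts5 was at 24.7, 26.8 and 22.1 per 1000 in WT and 38.4, 21.4 and 27.3 per 1000 in mutant libraries, so the groups overlapped. Timp1, a secreted inhibitor of matrix metalloproteases, reached 131.13 FPKM in Fbn1C1041G/+ replicate 1 and differed between the groups by 1.18 ± 0.62 in log2 (SE; adjusted p 0.483 by limma). In that library the summed macrophage markers were also highest (620.5 FPKM), and their part in the Timp1 value was not tested. Lrp1, the endocytic receptor for Adamts4 and Adamts5, had a log2 fold change of 0.42. None of the 6 tested genes of this list was called or had an unadjusted p under 0.05.

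Bcan, which encodes the proteoglycan brevican of nervous tissue, fell in Fbn1C1041G/+ aortas and was the only called gene among the substrates and partners listed. It stood at 2.53, 3.0 and 2.11 FPKM in WT and 0.43, 0.57 and 0.39 FPKM in mutant samples. The limma estimate was -1.27 ± 0.16 (log2, SE) with an adjusted p of 0.00530, and the gene stayed called in each alternative in which it was tested (adjusted p 0.00144 to 0.0314). Over all tested genes 4.85% were called lower. The related neurocan gene Ncan, below the filter and picked after its values were seen, ranged from 0.66 to 0.94 FPKM in WT libraries and from 0.36 to 0.52 FPKM in mutant ones. The 8 chromaffin and neuronal markers were all lower in the same comparison, with a summed level between 1520 and 1701 FPKM in WT and between 169.5 and 309.6 FPKM in the mutant libraries, and their part in the Bcan value was not tested. In bulk tissue fewer cells of a type and less RNA per cell cannot be told apart.

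The proteoglycans of the aortic wall did not pass the test. Vcan, versican, stood at 24.71, 20.41 and 23.64 FPKM in WT and 24.31, 28.64 and 18.96 FPKM in mutant samples (log2 fold change 0.05; limma adjusted p = 0.960). Acan, aggrecan, stood at 3.53, 6.09 and 2.21 FPKM in WT and 5.57, 9.66 and 8.84 FPKM in mutant samples. WT replicate 2 exceeded Fbn1C1041G/+ replicate 1, and Acan differed by 0.91 ± 0.32 in log2 (SE; limma, unadjusted p 0.0236, adjusted p 0.210). Of the hyaluronan partners none of 3 tested genes was called or had an unadjusted p under 0.05, with log2 fold changes of -0.26 in the link protein gene Hapln1 and 0.31 in the receptor gene Cd44. Has1, a hyaluronan synthase below the filter, ranged from 0.40 to 0.64 FPKM in WT libraries and from 0.48 to 1.91 FPKM in mutant ones.

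Procollagen genes, whose products Adamts2 trims, did not pass the test either: none of 7 tested genes of procollagen processing was called or had an unadjusted p under 0.05, with a median log2 fold change of 0.31. Col5a1 and Col3a1 had log2 fold changes of 0.68 and 0.38. Col1a1 was at 46.30 FPKM in WT replicate 3, far below the 144.54 to 314.72 FPKM of the other libraries. Relative to Col1a1, Adamts2 was at 90.0, 88.1 and 235.2 per 1000 in WT and 135.5, 140.4 and 113.4 per 1000 in mutant libraries, so in WT replicate 3 both genes were low and Col1a1 was lower still. Relative to Col3a1 it was at 117.7, 106.4 and 64.8 per 1000 in WT and 114.4, 110.5 and 84.9 per 1000 in mutant libraries.

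**Figure D5:**
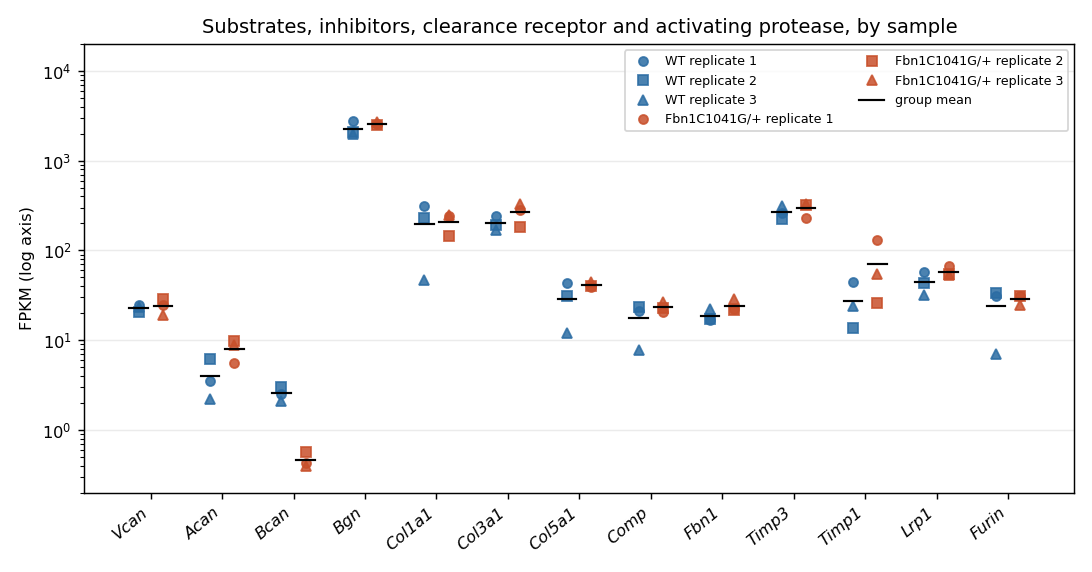
FPKM (log axis) in each sample of substrates (Vcan to Fbn1), inhibitors (Timp3 and Timp1), the clearance receptor gene Lrp1 and the activating protease gene Furin; colours and symbols mark group and replicate, bars the group means. Bcan is the gene with wide separation of the groups, between 2.11 and 3.0 FPKM in WT and between 0.39 and 0.57 FPKM in the mutant. WT replicate 3 is the lowest WT value in Acan, Bcan, Bgn, Col1a1, Col3a1, Col5a1, Comp, Lrp1 and Furin.

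Of 10 tested genes for other substrates none was called and 2 had an unadjusted p under 0.05, as did 15.2% of all tested genes. Fn1, fibronectin, stood at 385.84, 299.06 and 274.44 FPKM in WT and 430.97, 556.52 and 585.37 FPKM in mutant samples, without overlap. Its estimate was 0.71 ± 0.20 in log2 (SE; limma, adjusted p 0.105), and it was called with sample weights alone (adjusted p 0.0288), with adjusted p up to 0.363 in the other alternatives. Thbs2, thrombospondin 2, a substrate of Adamts1, had a log2 fold change of 0.56. Comp, the substrate of Adamts7, stood at 20.95, 23.55 and 7.76 FPKM in WT and 20.83, 23.04 and 26.53 FPKM in mutant samples. Immediate early genes, which respond to handling of tissue as well as to growth signals, were examined because Adamts1 is an inducible gene. None of 16 was called and 1, Nr4a1 (log2 fold change -0.87; limma adjusted p = 0.231), had an unadjusted p under 0.05. The estimate for Nr4a1 was -0.54 without WT replicate 1. Of the 16 estimates 10 were above 0 and 6 below, with a median log2 fold change of 0.06, and Dusp1 and Fos had -0.32 and -0.38.

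Marker levels describe the make-up of the RNA and do not count cells. Smooth muscle markers summed to between 9223 and 10843 FPKM in WT and between 10014 and 12163 FPKM in mutant libraries, fibroblast markers to 1481 to 1812 and 1584 to 2115 FPKM, and endothelial markers to 265.8 to 420.5 and 278.9 to 337.4 FPKM. None of these 8, 7 and 6 genes was called or had an unadjusted p under 0.05. Cardiomyocyte markers summed to between 42.1 and 66.4 FPKM in WT and between 153.4 and 550.3 FPKM in mutant libraries, with 5 of 8 called higher, and macrophage markers to 143.1 to 240.7 and 212.3 to 620.5 FPKM, with 0 of 7 called and 4 at an unadjusted p under 0.05. Skeletal muscle markers summed to 6.63 to 11.2 and 14.3 to 109.0 FPKM, with 1 of 3 tested genes called higher, and adipocyte markers to 787 to 3031 and 987 to 1901 FPKM, with 0 of 5 called and 0 at an unadjusted p under 0.05. Of all tested genes 0.744% were called higher and 15.2% had an unadjusted p under 0.05 (limma). Single muscle markers did not all follow their sums. In Fbn1C1041G/+ replicate 3 Acta1 was at 1.83 FPKM, below the 3.04 to 5.2 FPKM of WT. Myl7 was at 125.69 FPKM in that library and at 2 and 3.43 FPKM in mutant replicates 1 and 2.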

How the data were processed

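Expression was deposited by the authors as FPKM in a single gene table with 2 decimals. The submitters' processing notes name build mm9, while the sources used here do not give the aligner, quantifier or annotation. Symbols came from a RefSeq table of GRCm38.p6, which matched 21059 of 21117 genes. Steps between low values of genes with 1 transcript put the depth between about 13950000 and 16680000 fragments per library, with 60.7% to 65.2% of such values within 0.2 of a whole fragment at the best-fitting depth, where 40% would fall there without steps. Fragment numbers in the text use these estimates and GENCODE M21 transcript lengths and have no interval.

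Tests used log2(FPKM + 1), which understates fold changes of scarce genes, and the 13438 genes whose mean reached 1 FPKM were tested with limma 3.58.1 in R 4.3.3 (lmFit, eBayes with a trend, threshold 0.05). The same fit was also run on simulated data, with means and variances taken from these libraries. In these simulated data 50 genes were changed by each fold on the log2 scale. The fit recovered 6% of 1.5-fold, 48% of 2-fold, 96% of 4-fold and 100% of 8-fold changes, and 5.30% of its calls were false. With 3 samples a group, an exact permutation test has 0.1 as its smallest p and was not used. The members and gene lists were chosen with earlier results of these data known. Named genes are all members, called genes of each list, its 2 genes with the smallest p and its first gene, the 3 most abundant other ADAMTS genes, and the 3 nearest profiles of 2 members.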

Additional observations from a re-analysis of the deposited data

How the results depend on the processing

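No ADAMTS gene was called, higher or lower, under any of the 17 alternatives: other pseudocounts (0.1 and 0.01), a filter of 5 FPKM or none, 3 other scalings (quantile, median-ratio, and loess correction for GC content with span 0.3), other limma options (no trend, robust, sample weights), the replicate block, and each library left out. Over the 118 member fold changes these gave, the lowest adjusted p was 0.126. The median log2 fold change of the members, 0.22, ran from 0.14 with no filter to 0.28 with quantile normalization, and from 0.13 to 0.28 with single libraries left out. The summed FPKM moved by less than 1 SD under each scaling (117.8 to 118.2 in WT, 138.8 to 139.8 in mutant samples) and ran from 108.2 to 127.9 in WT and from 134.2 to 141.2 in mutant samples with single libraries left out. Among the 7 tested members the sign turned in 8 fold changes of 3 genes, and the cause was not tested. With single libraries left out, Adamts9 ran from -0.11 to 0.20, Adamts10 from -0.30 to 0.28 and Adamts15 from -0.0031 to 0.11. For Adamts9 it turned to -0.11 without WT replicate 1 and -0.10 without Fbn1C1041G/+ replicate 2. For Adamts10 it turned to 0.00030 with median-ratio scaling, 0.018 with GC correction, 0.28 without WT replicate 1 and 0.09 without Fbn1C1041G/+ replicate 3. For Adamts15 it turned to -0.0031 without WT replicate 2 and -0.0025 without Fbn1C1041G/+ replicate 1. Of the untested members, Adamts7 turned to 0.011 without WT replicate 1, and Adamts17 to 0.0064 without WT replicate 1 and 0.015 without Fbn1C1041G/+ replicate 1. Same-numbered libraries deviated together with correlations of 0.26, -0.02 and 0.10, and differently numbered ones with -0.19 to 0.10. Deviations from a mean of 3 libraries are tied to each other, so these correlations cannot settle whether the numbers mark pairs. The main fit took no pairs. With the replicate block the median stayed at 0.22 and no member was called, and over all genes 112 were higher and 586 lower, against 100 and 652 without it. At least 1 of these counts over all genes changed by over 1.5 times with sample weights (285 higher, 1011 lower), with the filter at 5 FPKM (33 and 349), without Fbn1C1041G/+ replicate 2 (193 and 568) and without other single libraries except WT replicate 3 (36 to 47 and 372 to 477). With 3 samples a group, the intervals of Adamts2, Adamts5, Adamts8 and Adamts10 leave changes of more than 1.5-fold in FPKM + 1 undecided. Those of Adamts1 and Adamts9 end just below, at 1.49 and 1.48, on a scale that understates fold changes of FPKM.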
